A study of Homo sapiens with 4 samples.

Results

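Secreted proteases and the proteins that restrain them were followed in the pancreatic cancer cell line PANC-1 and in PZT-2, a clone of it with reduced histone H2A.Z. The group was fixed by name and held 9 genes: the tissue inhibitors of metalloproteinases TIMP1, TIMP2 and TIMP3, the membrane-anchored metalloproteinases MMP14 and MMP15, the plasminogen activators PLAU and PLAT, the urokinase receptor PLAUR and the trypsin PRSS3. Of these, 7 were among the 15220 genes with counts in the table used here, and all 7 passed the filter on low counts. Transcripts of TIMP3 and PLAT were named only in the comparison table, without a count, and are therefore not analysed here.

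Tissue is remodelled by proteases that are made as inactive precursors and are switched on outside the cell. Urokinase, the product of PLAU, binds its receptor on the cell surface and cuts plasminogen into plasmin, which degrades fibrin and activates other proteases. MMP14 sits in the cell membrane, cuts collagen and, together with TIMP2, brings pro-MMP2 to the surface for activation, so TIMP2 acts both as an inhibitor and as an adaptor. In pancreatic cancer these enzymes are studied for their part in invasion through a dense stroma, and several are secreted by senescent cells.

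PANC-1 is an adenocarcinoma line of ductal origin and was sequenced without transduction. PZT-2 was derived from it with lentiviral short hairpin RNAs, driven by a U6 promoter, against all 3 H2A.Z isoforms, followed by puromycin selection. Both lines grew in the same serum-containing medium, and each gave 2 stranded poly(A) libraries that the study calls biological replicates. PZT-2 is 1 clone and libraries of a scrambled hairpin control are not analysed here, so the knockdown, the transduction and the choice of clone cannot be told apart.

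The 4 libraries held 12861527 to 15717577 counts after a scaling factor carried by each library was undone. The targeted gene H2AFZ, which encodes H2A.Z.1, fell from 6212 ± 251 to 2235.5 ± 32.5 normalized counts (mean ± SD, n = 2 libraries per line here and below), and H2AFV, which encodes the other isoforms, fell from 3398 ± 76.5 to 2654 ± 90.1. These were log2 fold changes of -1.47 (SE 0.0565, adjusted p = 6.18e-05) and -0.36 (SE 0.0568, adjusted p = 0.00564), PZT-2 against PANC-1, by the quasi-likelihood test of edgeR, which gives every adjusted p of a gene below unless another tool is named. Adjustment followed Benjamini and Hochberg over all 15100 genes tested. The call on H2AFV was lost without PZT-2 replicate 1 (adjusted p = 0.0558) and with the most abundant transcript alone (adjusted p = 0.0688). All 7 epithelial markers had counts. Their summed level was 7291 to 7322 TPM in PANC-1 and 3827 to 3902 TPM in PZT-2. TPM is a length-adjusted abundance meant to have a common total, but its deposited sum was 940619 to 1000100 per library. The keratins KRT8, KRT18 and KRT19 made up nearly all of the sum, and each was lower in PZT-2. SOX9 was higher, with 73.6 and 66.6 TPM in PANC-1 and 84.4 and 81.1 in PZT-2. EPCAM changed little, with 7.99 and 8.24 TPM in PANC-1 and 7.90 and 6.37 in PZT-2. KRT7 and CDH1 were low in both lines and lower in PZT-2. The acinar markers, which include PRSS1 and PRSS2, have no count values here, so their level is not known. Fibroblast markers summed to 13.0 to 14.3 TPM in PANC-1 and 5.88 to 6.94 TPM in PZT-2 from 3 of 8 genes, leukocyte markers to 1.14 to 1.49 and 2.03 to 3.59 TPM from 2 of 6, and the single endothelial gene with counts reached at most 0.236 TPM.

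Of the 7 members, 4 were higher in PZT-2 and none was lower. They were PLAU, its receptor PLAUR, the inhibitor TIMP2 and the trypsin PRSS3. TIMP1, MMP14 and MMP15 did not pass the test. Over all genes tested 28.4% were called, 14.7% as higher and 13.7% as lower. The libraries of the 2 lines did not overlap for any of the 7 members, with 6 higher and 1 lower in PZT-2, against 66.2% of all genes. At an unadjusted p under 0.05, which 40.6% of all genes reached in edgeR, edgeR gave 5 higher and 0 lower. At the same threshold DESeq2 gave 4 higher and 0 lower, and limma-trend on TPM 5 higher and 1 lower. The share over all genes was not counted for DESeq2 or limma-trend, so their counts stand without a background. The median log2 fold change of the 7 members was 0.84, beside 0.00097 over all genes. The members were chosen with earlier results of these data known, so these counts and this median are not independent evidence.

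**Figure D1:**
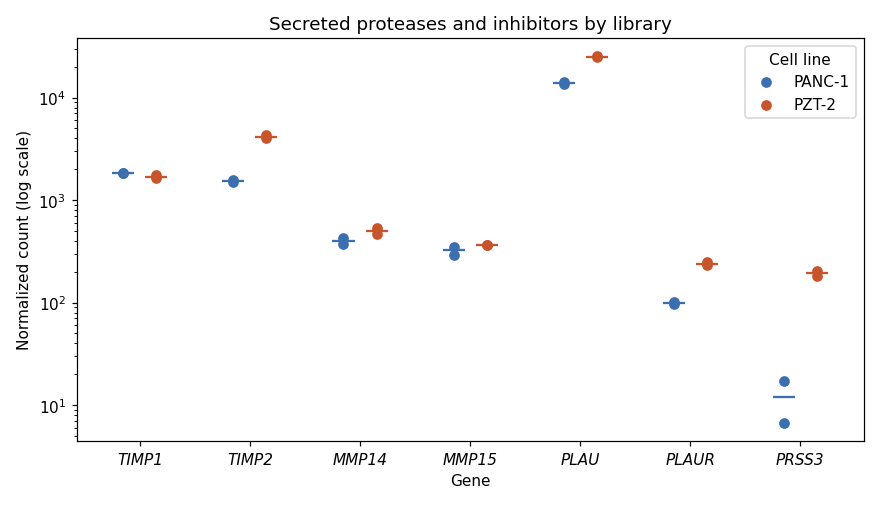
Normalized counts (vertical axis, log scale) of the 7 members with counts, with 1 point per library and a bar at the mean of each cell line. For PRSS3 the PANC-1 libraries lie at 6.75 and 17.2 and the PZT-2 libraries at 180.2 and 205, and for TIMP1 the PZT-2 libraries lie just under those of PANC-1.

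The members lie on different chromosomes, and their starts are of use beside the values. In GENCODE 29 on GRCh38 the transcripts that carried the counts span chr10:73911157-73917497 for PLAU, chr19:43648580-43670350 on the minus strand for PLAUR, chr14:22836557-22847761 for MMP14, chr16:58025566-58046901 for MMP15, chrX:47582313-47586789 for TIMP1, chr17:78852977-78925387 on the minus strand for TIMP2 and chr9:33750517-33799231 for PRSS3. RefSeq promoter windows (GRCh38.p14, 250 bases before to 50 after a start) were searched on both strands for an AP-1 site, TGANTCA, and a GC box, GGGCGG, the site that Sp1 binds. The stretches below are shown because PLAU and PLAUR rose while MMP14 and MMP15 did not pass the test. Capitals mark the motif, which in MMP15 is read on the opposite strand, and the last 3 capitals of PLAU open its next GC box. The 3 GC-box windows held no AP-1 match and the PLAUR window held no GC box.
PLAU, chr10:73911054-73911083: ggggagggagccGGGCGGgagagggagGGG
MMP14, chr14:22836507-22836536: aggagggcactgGGGCGGggacggaggaga
MMP15, chr16:58025525-58025554: tggaggtcacccCCGCCCcctaggcgctgg
PLAUR, chr19:43670337-43670366, minus strand: tcacaactccaTGAGTCAgggccgagccag

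The GC box occurred 3 times in the main PLAU window, once in MMP14, 5 times in MMP15 and 2 times in TIMP1, and at least once in 45.0% of 35116 promoters. The AP-1 letters were found in PLAUR, at position -186 from the RefSeq start, and in 7.71% of promoters. GENCODE 29 starts the main PLAUR transcript within that stretch, at base 43670350, so only the last letters of the match fall within that transcript and the others lie before it. The table's PRSS3 window, at chr9:33795311-33795610, belongs to a start far downstream of those of the counted transcripts and is not used. TIMP2 has no entry. CpG pairs numbered 28 in the main PLAU window, 18 in PLAUR, 10 in MMP14, 39 in MMP15 and 16 in TIMP1. GC boxes were thus present in windows of a gene that rose and of genes that did not pass the test, and these matches are a description of the letters only.

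PLAU was the most abundant member in both lines and was higher in PZT-2. Its normalized counts were 14317 and 13629.9 in PANC-1 and 24718 and 25359 in PZT-2. Every PZT-2 library stood far above both PANC-1 libraries, and the replicates lay close together. The mean went from 13974 ± 486 to 25038 ± 453, a log2 fold change of 0.84 (SE 0.0453, 95% CI 0.73 to 0.95, adjusted p = 2.05e-04). In level the gene exceeded 99.7% of all genes tested.

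PLAUR, which anchors urokinase to the membrane, rose as well but from a low level. The libraries gave 101 and 96.7 normalized counts in PANC-1 and 233 and 246 in PZT-2. The lines did not overlap, and the gap was many times the difference between replicates. The mean went from 99.0 ± 3.23 to 239 ± 9.69, a log2 fold change of 1.27 (SE 0.123, 95% CI 0.98 to 1.57, adjusted p = 0.00106). Per length, urokinase RNA exceeded receptor RNA 87.7- and 86.6-fold in PANC-1 and 66.3- and 63.8-fold in PZT-2. The ratio was therefore lower in both PZT-2 libraries, 0.747 times that of PANC-1, and the two-sided exact permutation test gave p = 0.333, the smallest that 2 against 2 libraries allow.

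Other genes around plasmin moved in both directions. In a list of 19 genes of plasminogen activation, which includes the members PLAU and PLAUR, 13 were tested. Of these, 5 were higher, PLAU and PLAUR among them, 4 lower and 4 not called. The median log2 fold change, with the members included, was 0.36. SERPINE2, which encodes an inhibitor of urokinase, was near the limit of detection with 16.9 and 0 normalized counts in PANC-1 and 22.1 and 11.9 in PZT-2, which overlap. PLG, the plasminogen gene itself, and SERPINB2 have no count values here.

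Genes of this list that passed the test included clearance receptors and cell-surface binders. LRP1, a receptor that takes up inhibitor-bound urokinase, rose from 242 ± 26.7 to 694 ± 96.2 normalized counts (log2 fold change 1.52, adjusted p = 7.46e-04). SERPINI1, a serpin that inhibits tissue plasminogen activator, rose from 8.12 ± 1.25 to 41.4 ± 3.01 (log2 fold change 2.34, adjusted p = 0.00469). The keratin KRT8, whose product can bind plasminogen at the cell surface, fell from 41447 ± 683 to 18429.6 ± 352 (log2 fold change -1.17, adjusted p = 5.95e-05), and S100A10, part of the annexin A2 complex that binds plasminogen, fell from 8328 ± 288 to 5943 ± 86.1 (log2 fold change -0.49, adjusted p = 0.00131). IGF2R, which binds the urokinase receptor and plasminogen, was the other gene called higher at 0.48, and ANXA2 and ENO1, plasminogen binders, were called lower at -0.15 and -0.41, and these 3 were named after their values were seen to complete the counts. The call on ANXA2 was lost in 6 of 15 alternatives, among them without PZT-2 replicate 1 (adjusted p = 0.220), without PZT-2 replicate 2 (adjusted p = 0.190) and both limma-trend fits (adjusted p = 0.0592 and 0.0563). KRT8 is also one of the epithelial markers, of which 4 were lower and 1 higher in PZT-2. Whether the lower summed level of these markers, carried mainly by KRT8, KRT18 and KRT19, had a part in these values was not tested. Both cultures derive from PANC-1, and in bulk RNA fewer cells with high marker RNA and less of it per cell cannot be told apart.

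**Figure D2:**
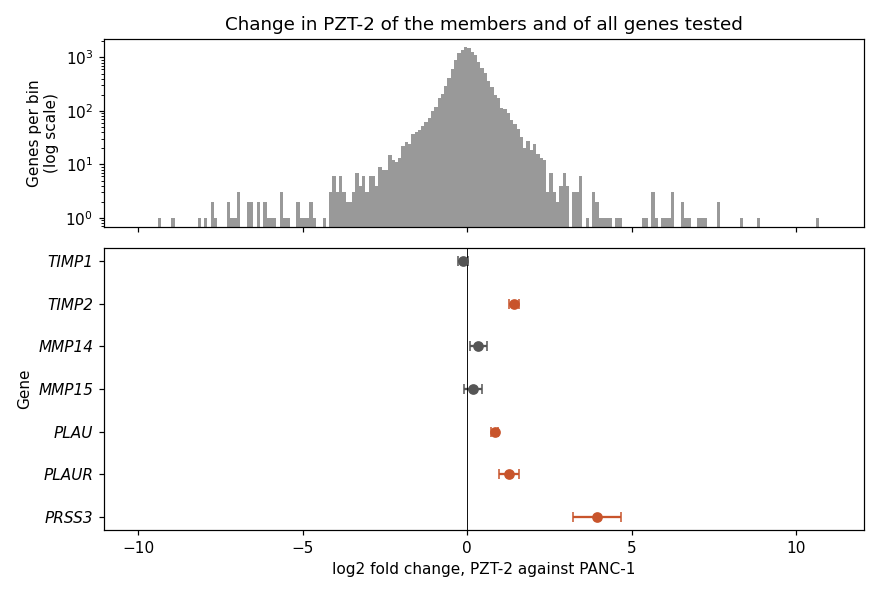
Top, number of genes (log scale) by log2 fold change of PZT-2 against PANC-1, over all 15100 genes tested. Bottom, log2 fold change of each member with its 95% confidence interval derived from the edgeR test. Orange marks an adjusted p under 0.05. The point for PRSS3 at 3.94 lies far to the right and TIMP1 at -0.12 is the only member left of 0.

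MMP14, the main membrane-anchored collagenase, was slightly higher in PZT-2 without passing the test. Its libraries held 424 and 375 normalized counts in PANC-1 and 539 and 467 in PZT-2. The groups did not overlap, but the lowest PZT-2 library was closer to the highest PANC-1 library than the replicates were to each other. The mean was 503 ± 50.8 in PZT-2 against 399.6 ± 34.8 in PANC-1, with a log2 fold change of 0.33 (SE 0.110, 95% CI 0.07 to 0.60, adjusted p = 0.0650). The call depended on the setting, since MMP14 passed with at least 10 counts in all 4 libraries (adjusted p = 0.0465) and without PANC-1 replicate 1 (adjusted p = 0.0247), and the adjusted p reached 0.299 without PZT-2 replicate 1.

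MMP15, the related membrane-type enzyme, gave 351 and 294 normalized counts in PANC-1 and 362 and 361 in PZT-2. The PZT-2 libraries were nearly equal and stood just above the higher PANC-1 library. The mean was 322 ± 40.6 against 362 ± 1.02, a log2 fold change of 0.17 (SE 0.112, 95% CI -0.10 to 0.44, adjusted p = 0.310).

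Among other metalloproteinases the changes of greatest size were those of soluble enzymes. Of 23 genes in the family list, MMP14 and MMP15 included, 12 were tested. Of these, 3 were higher, 1 lower and 8 not called, MMP14 and MMP15 among the last, with a median log2 fold change of 0.42. MMP1, the interstitial collagenase, gave 31.5 and 28.0 normalized counts in PANC-1 and 275 and 362 in PZT-2. It rose from 29.8 ± 2.47 to 318 ± 61.6, a log2 fold change of 3.42 (SE 0.206, adjusted p = 2.50e-04). MMP7, matrilysin, rose from 18.7 ± 2.18 to 80.8 ± 1.81 (log2 fold change 2.11, adjusted p = 0.00184). The third, MMP17, which is anchored to the membrane by a lipid, was named after its values were seen to complete the count, with a log2 fold change of 0.30 (adjusted p = 0.0313). Its call was lost in 5 alternatives, among them DESeq2 (adjusted p = 0.133) and each PZT-2 library left out (adjusted p = 0.163 without replicate 1 and 0.0893 without replicate 2), and without PANC-1 replicate 2 (adjusted p = 0.0889). Without PANC-1 replicate 1, 5 genes of the list were called higher.

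MMP2, the gelatinase whose precursor MMP14 cuts with the help of TIMP2, was the metalloproteinase that fell. It gave 3508 and 3600.4 normalized counts in PANC-1 and 2306 and 2119 in PZT-2. Both PZT-2 libraries were well below those of PANC-1, with a mean of 3554 ± 65.1 against 2213 ± 132 and a log2 fold change of -0.68 (SE 0.0632, adjusted p = 9.06e-04). In a list of 11 genes that activate MMP14 or work with it, TIMP2 and MMP2 included, all were tested. Of these, 3 were higher, TIMP2 among them, 3 lower, MMP2 among them, and 5 not called, with a median of 0.07. PCSK6, a proprotein convertase, rose from 169 ± 6.23 to 347 ± 6.92 (log2 fold change 1.04, adjusted p = 0.00111), a call lost when only the most abundant transcript was counted (adjusted p = 0.279). CAV1, a coat protein of the membrane pits through which MMP14 is internalised, fell from 6649 ± 179 to 4434 ± 325 (log2 fold change -0.58, adjusted p = 0.00166). Named after their values were seen, the remaining called genes were CLDN1, a tight junction protein, at 0.49 and BSG, an inducer of metalloproteinases, at -0.21. Both calls were lost without PZT-2 replicate 1 (adjusted p = 0.0689 for CLDN1 and 0.137 for BSG), without PZT-2 replicate 2 (adjusted p = 0.139 and 0.202) and with the most abundant transcript alone (adjusted p = 0.101 and 0.123). With that last setting 1 gene of the list was called higher. CLDN1 also lost its call in both limma-trend fits.

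TIMP2 was the member inhibitor that rose. Its libraries held 1581 and 1504 normalized counts in PANC-1 and 4288 and 3992 in PZT-2. The lowest PZT-2 library was above the highest PANC-1 library by far more than replicates differed. The mean went from 1542 ± 54.5 to 4140.0 ± 209, a log2 fold change of 1.43 (SE 0.0645, 95% CI 1.27 to 1.58, adjusted p = 1.08e-04), which ranked 334 among the 15100 genes by size of rise. TIMP2 is named in a figure of the study drawn from these same libraries, so its direction is not independent evidence.

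TIMP1, the more abundant inhibitor per length, gave 1854 and 1821 normalized counts in PANC-1 and 1629.7 and 1743 in PZT-2. Both PZT-2 libraries were lower, but the nearest libraries of the lines differed by less than the PZT-2 replicates did. The mean was 1838 ± 23.6 against 1686.5 ± 80.4, a log2 fold change of -0.12 (SE 0.0624, 95% CI -0.27 to 0.03, adjusted p = 0.193). RECK, a membrane-anchored inhibitor of MMP2 and MMP14, gave 177 and 218 normalized counts in PANC-1 and 306 and 306 in PZT-2. It rose with a log2 fold change of 0.63 (SE 0.127, adjusted p = 0.0135), a call lost without PZT-2 replicate 1 (adjusted p = 0.0601), without PZT-2 replicate 2 (adjusted p = 0.0697) and with the most abundant transcript alone (adjusted p = 0.155). TIMP4 has no count values here.

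Because TIMP2 and MMP14 act as partners, their RNA was compared per length within each library. The ratio of TIMP2 to MMP14 TPM was 3.66 and 3.94 in PANC-1 and 7.83 and 8.41 in PZT-2. It was 2.13 times higher in PZT-2, with means of 3.80 ± 0.196 and 8.12 ± 0.410 and no overlap. The ratio of TIMP1 to MMP14 was 19.4 and 21.7 in PANC-1 and 13.5 and 16.7 in PZT-2, 0.736 times the PANC-1 mean. Either ratio gave an exact permutation p = 0.333, the limit of the design. The ratio TIMP1 plus TIMP2 to MMP14 plus MMP15, the summed inhibitors over the summed membrane enzymes, was 14.5 ± 1.32 in PANC-1 and 14.4 ± 1.13 in PZT-2, which overlap (exact permutation p = 1). With counts in place of TPM that ratio was 1.44 times higher in PZT-2, since counts weight the longer TIMP2 transcript more.

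**Figure D3:**
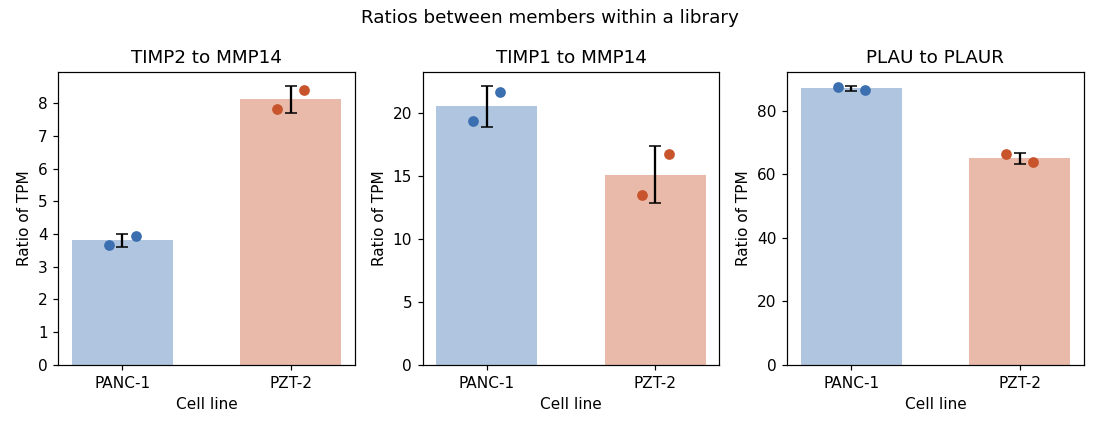
Ratio of the TPM of 2 members within a library, with points for libraries, bars for the mean of each cell line and whiskers for the SD (n = 2). The TIMP2 to MMP14 ratio rises from 3.80 to 8.12, and the TIMP1 to MMP14 and PLAU to PLAUR ratios are lower in PZT-2.

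PRSS3 encodes mesotrypsin, a trypsin that resists and can degrade polypeptide trypsin inhibitors, and it showed the widest change of the members. The recovered counts were 6 and 19 in PANC-1 and 179 and 207 in PZT-2. Normalized, these were 6.75 and 17.2 against 180.2 and 205, so that both PANC-1 libraries were near the bottom of the range and both PZT-2 libraries well above it. The mean went from 12.0 ± 7.37 to 192 ± 17.3, a 15.3-fold rise and a log2 fold change of 3.94 (SE 0.306, 95% CI 3.20 to 4.67, adjusted p = 5.32e-04), which ranked 31 of 15100. The low PANC-1 counts make the fold less certain than its direction, and over the alternatives it ranged from 3.45 to 4.80 on the log2 scale, the highest without PANC-1 replicate 2. PRSS1 and PRSS2, near-identical copies with which reads could be shared, have no count values here, so the assignment to PRSS3 rests on the authors' estimate.

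The rest of its family did not follow as a group. Of 35 genes listed with the trypsin-like serine proteases, PRSS3 included, 13 were tested. Of these, 3 were higher, PRSS3 among them, 1 lower and 9 not called, with a median log2 fold change of -0.07. F3, among those not called, encodes tissue factor, which is not a protease. HTRA1, a secreted protease that binds growth factors of the TGF-beta family, rose from 109 ± 3.01 to 255 ± 0.391 normalized counts (log2 fold change 1.23, adjusted p = 9.96e-04). ST14, matriptase, was the third that rose and was named after its values were seen. It passed the filter on low counts through its PZT-2 libraries. It gave 3.38 and 8.13 normalized counts in PANC-1 and 30.2 and 26.7 in PZT-2, a low level in both lines (log2 fold change 2.24, adjusted p = 0.0167). The call was lost without PZT-2 replicate 1 (adjusted p = 0.0600), without PZT-2 replicate 2 (adjusted p = 0.0541) and with the most abundant transcript alone (adjusted p = 0.0549), and without PANC-1 replicate 2 the log2 fold change was 3.02. TMPRSS2, a membrane-bound serine protease, fell from 51.5 ± 1.26 to 27.5 ± 5.28 (log2 fold change -0.91, adjusted p = 0.0480), a call lost in 8 of 15 alternatives, among them DESeq2 (adjusted p = 0.223) and each library left out in turn (adjusted p 0.0822 to 0.219).

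Inhibitors of serine proteases outside the members moved in both directions. Of 34 serpins 14 were tested, with 2 higher, 1 lower and 11 not called and a median of 0.0018. SERPINA1, which encodes alpha-1-antitrypsin, gave 13.5 and 3.61 normalized counts in PANC-1 and 28.2 and 53.4 in PZT-2. It passed the filter on low counts through its PZT-2 libraries. It rose by a log2 fold change of 2.30 (SE 0.616, adjusted p = 0.0345), a call lost in 4 alternatives, such as without PZT-2 replicate 2 (adjusted p = 0.161). Its log2 fold change was 3.45 without PANC-1 replicate 1 and 1.58 without PANC-1 replicate 2. SERPINH1, a collagen chaperone that inhibits no protease, fell by 0.23 on the log2 scale (adjusted p = 0.0222), a call lost without either PZT-2 library (adjusted p = 0.132 and 0.153). Serpins called higher numbered 4 without PANC-1 replicate 1 and 1 without PZT-2 replicate 2, and those called lower 3 without PANC-1 replicate 2 and 0 without either PZT-2 library. Of 19 Kunitz and Kazal inhibitors 8 were tested, with 2 higher, 2 lower and 4 not called, and 4 were higher without PANC-1 replicate 1. APP and APLP2, membrane proteins with a Kunitz domain in some forms, rose by 0.36 and 0.32 on the log2 scale, while SPINT2, which blocks hepsin and matriptase, fell by 0.35. SPOCK1, a secreted proteoglycan with a Kazal-like domain, fell from 739 ± 46.9 to 141 ± 1.75 normalized counts (log2 fold change -2.39, adjusted p = 8.01e-05).

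The ADAM and ADAMTS proteases, related metalloproteinases that shed surface proteins or cut the matrix, were mostly not called. Of 28 genes 17 were tested, with 2 higher, 1 lower and 14 not called and a median log2 fold change of -0.18. ADAM17, the sheddase of tumour necrosis factor, rose from 806 ± 37.3 to 1874 ± 87.9 normalized counts (log2 fold change 1.22, adjusted p = 2.24e-04). ADAM10, its closest relative, rose by 0.37 on the log2 scale (adjusted p = 0.0180), a call lost without PZT-2 replicate 1 (adjusted p = 0.102). ADAM8 fell from 103 ± 5.39 to 23.5 ± 13.7 (log2 fold change -2.13, adjusted p = 0.00681). Without PZT-2 replicate 1 its log2 fold change was -2.88, and without PZT-2 replicate 2 it was -1.63. Genes of the list called lower numbered 2 without PANC-1 replicate 1 and without PZT-2 replicate 2.

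**Figure D4:**
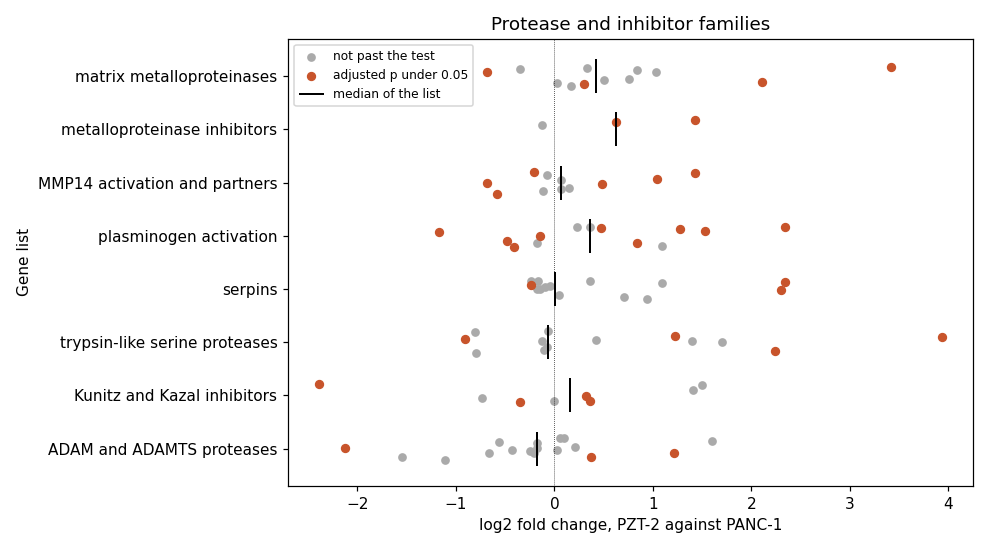
Log2 fold change of PZT-2 against PANC-1 for each tested gene of 8 lists of proteases, inhibitors and partners, with orange points where the adjusted p was under 0.05 and a black bar at the median of the list. PRSS3 at 3.94 and MMP1 at 3.42 lie far right of the medians of their lists, -0.07 and 0.42.

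Several members are read as more than 1 transcript, and the division between them is an estimate of kallisto. Of 30403 transcripts tested with edgeR, 0.148% were called, against 14.5% with DESeq2, and of the 11 transcripts of members edgeR called 1, NM_003255 of TIMP2 (log2 fold change 1.42, adjusted p = 0.0445). DESeq2 called 5, which were NM_003255, NM_002658 of PLAU, NM_002659 of PLAUR, and NM_001197098 and NM_007343 of PRSS3. At an unadjusted p under 0.05 edgeR gave 5 of the 11, all higher, beside 18.5% of all transcripts. PLAU was carried by NM_002658, with 94.7% to 97.6% of its counts in every library. The minor form NM_001319191 gave 118 and 477 normalized counts in PANC-1 and 599 and 529 in PZT-2, with the PANC-1 replicates far apart.

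NM_002659, which encodes the membrane-anchored urokinase receptor, held 81.4% and 68.5% of PLAUR counts in PANC-1 and 88.8% and 82.2% in PZT-2. The other form with counts, NM_001005376, gave 19.1 and 30.9 normalized counts in PANC-1 and 26.1 and 43.4 in PZT-2, which overlap. For PRSS3 both forms with counts were low in PANC-1. NM_001197098 gave 6.75 and 9.99 normalized counts in PANC-1 and 80.4 and 121 in PZT-2, and NM_007343 gave 0 and 7.27 in PANC-1 and 99.5 and 82.8 in PZT-2. Neither form passed the edgeR test over all transcripts (adjusted p = 0.0956 for NM_001197098 and 0.263 for NM_007343), though DESeq2 called both. NM_007343 passed the filter on low counts through its PZT-2 libraries. The 2 forms held similar shares of the gene in PZT-2, with NM_001197098 at 44.6% and 59.5%.

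In TPM, which adjusts for length, the members spanned a wide range. In PANC-1 the order was PLAU at 767 ± 23.5, TIMP1 at 292 ± 1.38, TIMP2 at 54.1 ± 1.74, MMP14 at 14.3 ± 1.19, MMP15 at 9.67 ± 1.19, PLAUR at 8.80 ± 0.195 and PRSS3 at 2.11 ± 1.18. MMP15 and PLAUR did not differ beyond their spread there, since the MMP15 libraries lay at 10.5 and 8.83 and those of PLAUR at 8.94 and 8.67. In PZT-2 the order was PLAU at 1364 ± 22.7, TIMP1 at 267 ± 12.6, TIMP2 at 144 ± 7.55, PRSS3 at 31.9 ± 3.88, PLAUR at 21.0 ± 0.909, MMP14 at 17.8 ± 1.83 and MMP15 at 10.7 ± 0.0509. PRSS3 thus moved from the last place to the fourth, and PLAUR and MMP14 lay close, at 20.3 and 21.6 against 19.1 and 16.5.

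Genes beside the members on the chromosome were compared, with 5 tested genes on each side. Over all genes tested, 14.7% were called higher and 13.7% lower. Of the 10 around PLAU, 3 were higher and none lower. These included the nearest on either side, CAMK2G at 0.63 and VCL at 0.28 on the log2 scale. The median log2 fold change of the 10 around PLAU was -0.02. Around TIMP2, 2 were higher and 1 lower, and the nearest on either side were LGALS3BP at -0.76 and USP36 at 0.20. Around PRSS3, 2 were higher, among them UBE2R2 at 0.32. None of the 10 around PLAUR or MMP15 was called, while 3 around MMP14 and 2 around TIMP1 were lower. The median of chromosome X, where TIMP1 lies, was -0.29 over 469 genes, and the medians of the other members' chromosomes lay between -0.05 and 0.01.

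Genes whose pattern over the 4 libraries was nearest to that of a member were found by Euclidean distance between centred log2 CPM, counts scaled to library size. For TIMP2 these were HES2 (log2 fold change 1.40) and TBKBP1 (1.43), for PLAU they were CNTNAP3 (0.85) and NBEAL2 (0.82), and for PLAUR they were SYNC (1.29) and PLIN2 (1.29). PRSS3 had no close match, with distances of 0.399 to USP2 (4.32) and 0.712 to CXCL8 (4.54), against 0.0236 to 0.0503 for the nearest genes of the other 3 members that rose. The nearest to the members that did not pass the test were POLE4 and MRPL12 for TIMP1, LYRM1 and FAM157A for MMP14, and TPD52 and LTBP4 for MMP15. Over 4 libraries in 2 groups such likeness is mainly a like size of difference between the lines.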

How the data were processed

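RNA-seq of 4 libraries was used, 2 of PANC-1 and 2 of PZT-2. Per the labels and the study's methods, reads were trimmed with Trim Galore 0.4.1 and quantified on RefSeq transcripts with kallisto 0.43.0, and sleuth 0.29.0 made the comparison. The processing notes name hg19. The authors deposited estimated counts (expected counts) with TPM and effective length per transcript, and a table of their own comparison, of which only transcript and gene names were used and no fold change or p-value.

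The deposited estimated counts carried 1 factor per library, from 0.935 to 1.16. Once it was undone, 43.0% to 43.4% of values between 0.5 and 30 of single-transcript genes were whole to within 0.01, against 0.812% to 2.48% before. Of 31077 transcripts 27049 were named by the table and 3925 by accession in RefSeq (GRCh38.p14), and 103 with 0.0466% of the counts were left out. Counts were summed per gene and rounded. Genes that reached 5 counts in 2 or more libraries were tested with edgeR 4.0.16 (TMM, quasi-likelihood, group as the sole term) in R 4.3.3, with Benjamini-Hochberg adjustment and a threshold of 0.05. Normalized counts are scaled to the mean effective library. TPM was used as deposited, for levels and ratios, and its sum per library was 940619 to 1000100. Replicates differed by 6.23 (PANC-1) and 3.52 (PZT-2) times counting variance. With separate cultures not stated beyond "biological replicates", p-values measure the spread between these libraries. The SE of a log2 fold change was its size divided by the square root of the F statistic of the edgeR test. Intervals of 95% were built from that SE and a t quantile, so both restate the test.

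Named were the 9 members, the partners TIMP4, RECK, MMP2, PLG, SERPINE2, SERPINB2, PRSS1 and PRSS2, the targeted genes, of each list up to 2 called genes with the largest rise and up to 2 with the largest fall at a mean of at least 20 normalized counts, and for each member the 2 genes nearest in pattern. The result of 1 further partner is not reported here. Members and lists were chosen with earlier results of these data known. Alternatives were RLE factors, DESeq2 1.42.0, other filters, limma-trend (limma 3.58.1) on log2(TPM + 1) and log2(TPM + 0.1), counts as deposited, the version 4 dispersion estimate, a replicate block, each library left out, length-scaled counts and the most abundant transcript alone. The fits were tested on simulated data.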

Additional observations from a re-analysis of the deposited data

How the results depend on the processing

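TIMP2, PLAU and PLAUR were called higher in 15 of 15 alternatives and PRSS3 in the 14 that kept it, since it drops out with at least 10 counts in all 4 libraries. TIMP1 and MMP15 were not called in 15 of 15, and MMP14 was called in 3. All genes called came to 4287, and to 2124 with the most abundant transcript alone. With 1 library left out they ranged from 2021 to 4623. The lowest came with PZT-2 replicate 2 removed, and removing PZT-2 replicate 1 gave 2460, and in both the remaining PZT-2 library is assumed to vary like the others.

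Member transcripts called came to 1, and to 5 with DESeq2, 3 with at least 10 counts in all 4 libraries, 2 with limma-trend on log2(TPM + 1), 2 with the version 4 dispersion estimate, 0 with counts as deposited and 0 with any library left out, where 4 to 6 had an unadjusted p under 0.05 in edgeR. PLAU NM_001145031, at 0.12 on the log2 scale, ran from -0.0385 to 0.27 as single libraries were left out, the lowest being without PZT-2 replicate 1, and was never called. The cause of these differences was not tested. Replicate numbers showed no pairing, with a correlation of 0.00846 between the lines over 12512 genes. With the replicate block 5 members were called higher, since MMP14 was added (adjusted p = 0.0445), the genes called numbered 3737 and the member transcripts called 0, and of the named genes SERPINA1, TMPRSS2 and ANXA2 lost their call. The option to count PRSS1, PRSS2 and PRSS3 as 1 gene gave no value of its own because PRSS1 and PRSS2 have no count values here. Low counts in PANC-1 limit PRSS3, SERPINE2 and other genes at that level, and for SERPINE2, with 16.9 and 0 normalized counts in the PANC-1 libraries, the log2 fold change ran from 0.0023 to 7.15 as single libraries were left out.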
